A study of Mus musculus with 6 samples.

Results

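The odorant receptor genes Olfr828 to Olfr870 form the proximal receptor cluster of mouse chromosome 9. They were chosen by symbol alone, as every intact Olfr symbol (no pseudogene suffix) in that number range, which gave 28 of the 53686 genes in the table. The libraries hold poly-A RNA of the main olfactory epithelium, 3 from mice hemizygous for the 5x21-OR1A1 transgene and 3 from wild-type mice, all C57BL/6J. OR1A1 is a human odorant receptor, and by its title the study asks whether receptor choice works alike for such an abundant transgene. The labels do not describe the 5x21 element or name the animals, their age or any pooling. The p-values therefore measure the spread between these libraries, and part of it may be technical. It is not technical alone, because libraries within each group differed in sex by their Xist counts, given below. Whether every library is a separate animal is not stated. The table holds no row for the transgene itself.

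Odorant receptors are G protein-coupled receptors in the cilia of olfactory sensory neurons. A mature neuron expresses 1 allele of a single receptor gene out of a very large repertoire, and the others stay silenced. Receptors fall into class I, related to the receptors of fish, and class II, the larger group that expanded in land vertebrates, to which the chromosome 9 receptors belong. In the tissue as a whole, the RNA level of a receptor therefore reflects how many neurons chose it and how much each of them makes, and a bulk library cannot tell fewer cells from less RNA per cell. The odorants of most of these receptors are not stated here, and each gene below is an odorant receptor unless another role is given.

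The 28 genes lie on chromosome 9 between 18814728 and 20174057 of GRCm38, a span of 1.36 Mb, in the GENCODE M21 annotation, with 16 on the plus strand and 12 on the minus strand. All are annotated as protein coding, with coding sequences of 915 to 993 bases. A zinc finger gene, Zfp317, stands between Olfr855 and Olfr857 and divides them into 19 genes before it and 9 after it. Over the 378 pairs of coding sequences the median identity was 66.4%, from 59.7% to 95.4%. The median was 68.8% among the genes before Zfp317, 67.6% among those after it and 64.3% between the stretches. Only 12 pairs reached 85%, and these fell into Olfr832 with Olfr834, Olfr830 with Olfr836 and Olfr837, Olfr846 with Olfr847, Olfr850 with Olfr854, and the group of Olfr857, Olfr859, Olfr860 and Olfr862. Reads were 100 bases long, and 18 of the 28 genes shared no 100-base stretch of transcript with another annotated odorant receptor. The largest share was 5.46% of the windows of Olfr869, found also in Olfr872.

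**Figure D1:**
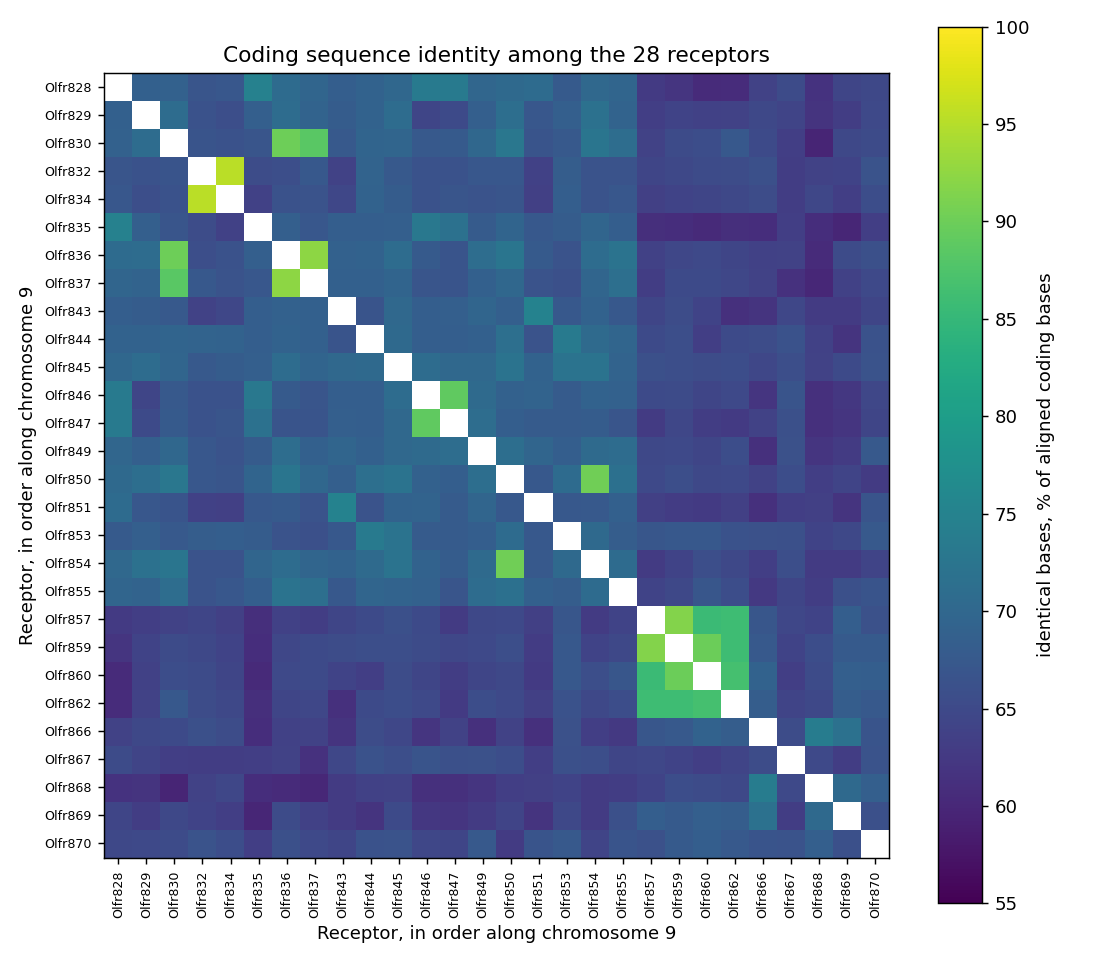
Identity of coding sequences between every pair of the 28 receptors, in % of aligned coding bases, with both axes in order along chromosome 9. The bright blocks are the 12 pairs at or above 85%, and the darker rectangles are the pairs between the stretches before and after Zfp317, with a median of 64.3%.

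The comparisons below turn on close relatives that lie near each other, so the same stretch of coding sequence is shown for 3 such pairs, read from the GENCODE M21 transcripts. Each line gives 120 bases from coding base 301 of the first gene of a pair and the aligned bases of its relative. Capitals mark the bases that differ within a pair, 3 in the first pair, 14 in the second and 9 in the third.
Olfr832: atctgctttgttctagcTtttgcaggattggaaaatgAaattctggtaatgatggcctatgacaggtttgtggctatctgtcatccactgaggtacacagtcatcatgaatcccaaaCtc
Olfr834: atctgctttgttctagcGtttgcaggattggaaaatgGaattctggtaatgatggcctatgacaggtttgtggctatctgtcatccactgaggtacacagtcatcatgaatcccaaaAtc
Olfr830: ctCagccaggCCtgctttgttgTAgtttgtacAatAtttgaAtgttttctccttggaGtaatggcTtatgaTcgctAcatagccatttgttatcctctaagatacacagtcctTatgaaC
Olfr836: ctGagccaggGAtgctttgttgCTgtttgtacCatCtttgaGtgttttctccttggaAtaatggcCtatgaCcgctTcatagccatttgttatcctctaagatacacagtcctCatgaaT
Olfr846: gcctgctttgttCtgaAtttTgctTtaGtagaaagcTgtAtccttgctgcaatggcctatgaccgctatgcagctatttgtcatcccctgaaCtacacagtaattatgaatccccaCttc
Olfr847: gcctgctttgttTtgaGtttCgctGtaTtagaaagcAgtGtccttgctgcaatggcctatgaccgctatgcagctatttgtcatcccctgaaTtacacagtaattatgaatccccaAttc

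The libraries held 27506217 to 35423577 counts in transgenic tissue and 30177731 to 35804712 in wild-type tissue. The 28 receptors together took 1137, 1061 and 758 counts in the transgenic libraries, against 1261, 1867 and 1619 in the wild-type libraries. Mature neuron markers took less of the transgenic libraries too, 1.33% to 1.46% of all counts, against 2.02% to 2.64% in wild-type libraries. The sexes were mixed in both groups, with Xist at 4, 3640 and 2969 counts in transgenic libraries and at 4816, 1 and 3 in wild-type libraries. The labels name no sex, and the part of sex in the results was examined only through a covariate.

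Most members were expressed at a low level, and the order of levels was much alike in both genotypes. Counts were expressed relative to library size as CPM, with the TMM scaling of edgeR, and divided by the annotated exon length of each gene to compare genes. On that scale Olfr868 was highest, at 1.22 CPM per kb in transgenic and 2.30 CPM per kb in wild-type tissue, followed in both by Olfr847 (0.984 and 2.01 CPM per kb), Olfr835 (0.868 and 1.04 CPM per kb) and Olfr855 (0.559 and 1.03 CPM per kb). Over the 28 genes the rank correlation of mean CPM between the genotypes was 0.86, given as a description because the genes share their libraries. The 5 members with the largest shares took 50.8% of the members' counts in transgenic and 51.6% in wild-type tissue. Olfr834 had 0 counts in all 6 libraries, which allows up to 3 counts a library, or 0.0847 to 0.109 CPM in transgenic and 0.0838 to 0.0994 CPM in wild-type libraries. That limit covers counting error only, over the 939 annotated exon bases of Olfr834.

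**Figure D2:**
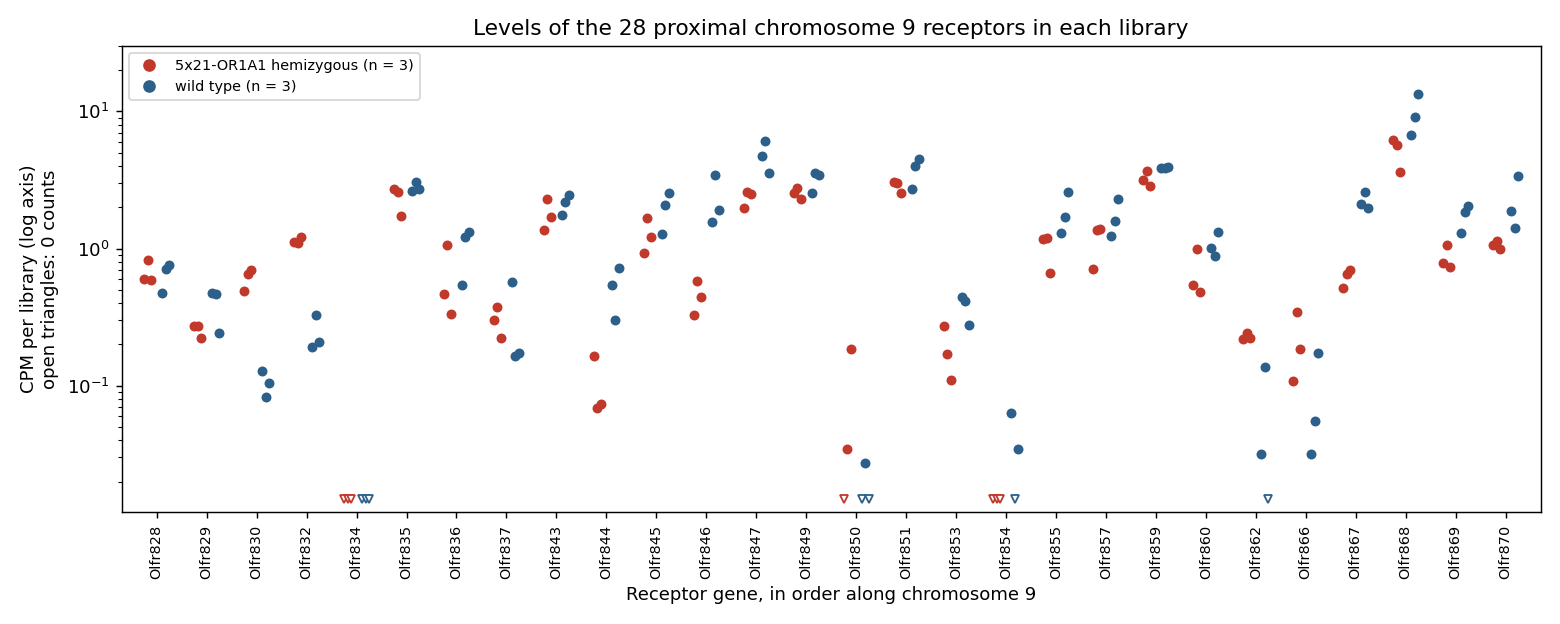
CPM of each of the 28 receptors in every library, on a log axis, with genes in order along chromosome 9; red points are the 3 transgenic libraries and blue points the 3 wild-type libraries, and open triangles mark 0 counts. Olfr868 is the highest gene in both genotypes and Olfr834 has no count in any library, while Olfr830 and Olfr832 are the tested genes whose transgenic points all stand above the wild-type points.

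Of the 19 members with enough counts to test, 4 passed the edgeR threshold (adjusted p under 0.05 over all 19267 genes tested), against 2.71% of all genes. Olfr830 and Olfr832, a pair of neighbours near the proximal end, rose in transgenic tissue, against 0.519% of all genes called higher. Both had enough counts for the test only through the transgenic libraries, so their entry into the test is not separate from their direction. Olfr846 and Olfr867 fell, against 2.20% of all genes called lower. The other class II receptors gave 15 genes higher and 165 lower of 749 tested, or 2% and 22%. Whether the members differ from those shares was not tested.

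Olfr832 (chromosome 9, 18937122 to 18948940, plus strand) had 1.12, 1.10 and 1.22 CPM in the transgenic libraries, against 0.191, 0.330 and 0.208 CPM in the wild-type libraries. These values rest on 41, 32 and 33 counts in transgenic libraries, against 6, 12 and 6 in wild-type libraries, and the groups did not overlap. The log2 fold change was 2.20 (SE 0.31), a ratio of 4.60, with an edgeR adjusted p of 0.0113. Its nearest relative Olfr834, 95.4% identical over the coding sequence, lies in the same orientation at 18987990 to 18988928 and had no count in either genotype. GENCODE M21 gives Olfr834 939 exon bases, 936 of them coding, against 4435 exon bases for Olfr832. Reads of Olfr834 outside its coding sequence may therefore go uncounted, and the 2 genes' counts are not directly comparable.

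Olfr830 (18874693 to 18878369, plus strand) had 0.491, 0.652 and 0.700 CPM in transgenic libraries, against 0.127, 0.0824 and 0.104 CPM in wild-type libraries. The counts were 18, 19 and 19 in transgenic libraries, against 4, 3 and 3 in wild-type libraries, again with no overlap. The log2 fold change was 2.51 (SE 0.37), a ratio of 5.71, with an edgeR adjusted p of 0.0147. With 3 or 4 counts in each wild-type library, the size of this ratio is uncertain. The values of its relatives Olfr836 and Olfr837 overlapped between the genotypes. Olfr836 had 17, 31 and 9 counts in transgenic libraries, against 17, 44 and 38 in wild-type libraries, with a log2 fold change of -0.72 (SE 0.50, edgeR adjusted p = 0.518). Olfr837 had 11, 11 and 6 counts in transgenic libraries, against 18, 6 and 5 in wild-type libraries, too few to test.

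Olfr846 (19357065 to 19364005, minus strand) had 0.327, 0.583 and 0.442 CPM in transgenic libraries, against 1.56, 3.43 and 1.90 CPM in wild-type libraries. The counts were 12, 17 and 12 in transgenic libraries, against 49, 125 and 55 in wild-type libraries. The wild-type libraries were all above the transgenic ones, and the second of them was the highest. The log2 fold change was -2.36 (SE 0.39), a ratio of 0.195, with an edgeR adjusted p of 0.0209. Its neighbour and nearest relative Olfr847, 89.1% identical, lay in the same direction without passing the threshold. Olfr847 had 1.96, 2.57 and 2.50 CPM in transgenic libraries, against 4.73, 6.10 and 3.56 CPM in wild-type libraries, also without overlap (log2 fold change -1.04, SE 0.23, edgeR adjusted p = 0.0653).

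Olfr867 (20050955 to 20057562, minus strand) had 0.518, 0.652 and 0.700 CPM in transgenic libraries, against 2.096, 2.58 and 1.97 CPM in wild-type libraries. It had 19 counts in each transgenic library, against 66, 94 and 57 in wild-type libraries. The log2 fold change was -1.83 (SE 0.24), a ratio of 0.280, with an edgeR adjusted p of 0.00895, the lowest among the members. No other member was closely related to it, the nearest being Olfr846 at 66.8% identity.

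The 4 calls were sensitive to leaving out a transgenic library. Without transgenic library 1 or 2, edgeR called 0 members, and without transgenic library 3 it called Olfr867. The edgeR adjusted p of the lost calls ran from 0.0517 to 0.108, and the 4 fold changes kept their direction. Calls over all genes also fell, from 523 to 155, 175 and 150 without transgenic library 1, 2 and 3. Without library 1 or 2, 11 of 23 and 13 of 22 members tested had an unadjusted edgeR p under 0.05. The share of all genes at that unadjusted level is not given here. Without wild-type library 2 the call of Olfr830 was lost (edgeR adjusted p = 0.0637). With Xist as a covariate, an alternative added after seeing the data, that of Olfr846 was lost (edgeR adjusted p = 0.0702).

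**Figure D3:**
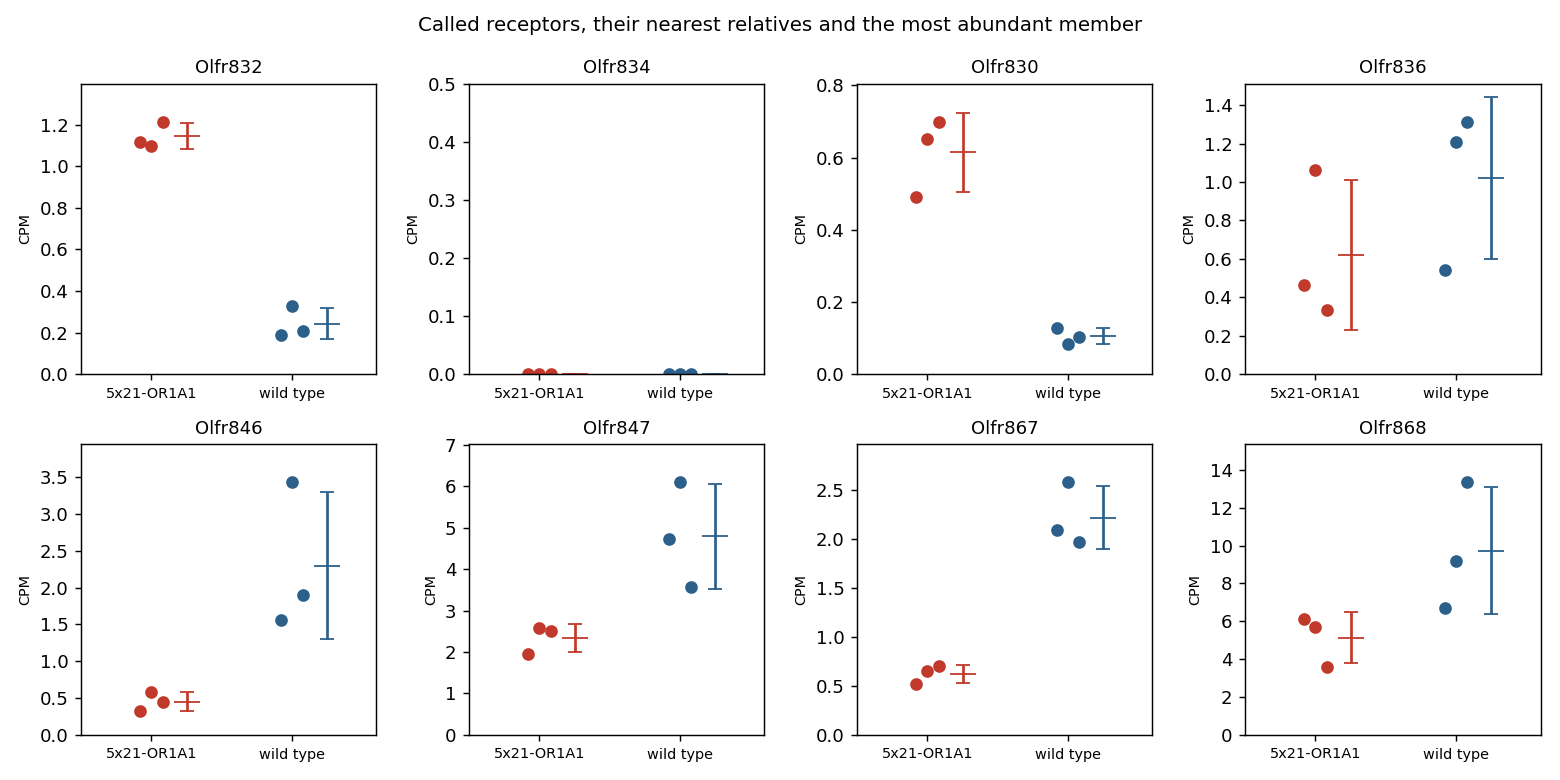
CPM of the 4 called receptors, the nearest relatives of 3 of them and the most abundant member Olfr868, with the 3 transgenic libraries left of the 3 wild-type libraries in each panel; bars are means ± SD and each panel has its own axis from 0. Olfr832 and Olfr830 are higher in every transgenic library, Olfr846 and Olfr867 lower, and Olfr834 stays at 0.

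The ratio between close relatives was compared where both passed the count filter, which left 5 pairs. Olfr830 passed that filter only through the transgenic libraries, where its counts were higher. The log2 ratio of Olfr830 to Olfr836 counts, with 0.5 added to each, was 0.08, -0.69 and 1.04 in transgenic libraries, against -1.96, -3.67 and -3.46 in wild-type libraries. The difference was 3.17 (SE 0.73; two-sided exact permutation test, p = 0.1, the smallest possible with 3 against 3). The log2 ratio of Olfr846 to Olfr847 was -2.54, -2.11 and -2.45 in transgenic libraries, against -1.59, -0.83 and -0.90 in wild-type libraries, a difference of -1.26 (SE 0.28; exact permutation p = 0.1). With 3 against 3 libraries the exact test cannot reach 0.05, so it cannot decide on either difference. After adjustment over the 5 pairs the Benjamini-Hochberg adjusted exact p was 0.25 for each. The 3 other pairs, all within the group of Olfr857, Olfr859 and Olfr860, differed by -0.31, 0.14 and 0.45 with overlapping groups.

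The most abundant members had lower values in transgenic tissue without passing the threshold. Olfr868 had 6.13, 5.695 and 3.61 CPM in transgenic libraries, against 6.70, 9.17 and 13.35 CPM in wild-type libraries. Its groups did not overlap, but the lowest wild-type library stood close to the highest transgenic one. The log2 fold change was -0.91 (SE 0.29, edgeR adjusted p = 0.157), with an approximate 95% interval (1.96 SE) of -1.47 to -0.36. Olfr859 had 3.16, 3.71 and 2.87 CPM in transgenic libraries, against 3.84, 3.84 and 3.94 CPM in wild-type libraries (log2 fold change -0.26, SE 0.16, edgeR adjusted p = 0.476). Olfr851 had 3.08, 2.99 and 2.54 CPM in transgenic libraries, against 2.70, 4.01 and 4.53 CPM in wild-type libraries (log2 fold change -0.38, interval -0.82 to 0.06). Its first wild-type library lay among the transgenic values. Olfr849 had 2.54, 2.75 and 2.28 CPM in transgenic libraries, against 2.54, 3.54 and 3.43 CPM in wild-type libraries (log2 fold change -0.33, interval -0.71 to 0.06). Olfr835 had 2.70, 2.57 and 1.73 CPM in transgenic libraries, against 2.64, 3.05 and 2.73 CPM in wild-type libraries (log2 fold change -0.26, interval -0.69 to 0.16). For the last 4 genes the interval includes 0 (-0.57 to 0.06 for Olfr859). The groups did not overlap for Olfr859, whose lowest wild-type value stood close to its highest transgenic one, and they overlapped for Olfr851, Olfr849 and Olfr835.

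Olfr868 is the member among the 6 most abundant where the RefSeq and GENCODE gene models begin at the same base, so its promoter window is shown. Of the 24 members with a RefSeq window, 22 have a RefSeq start within 100 bases of an annotated coding start, and their windows are not shown. The window covers chr9:20098376-20098675 of GRCm38.p6 on the plus strand, from 250 bases before to 50 after the start, and the capitals mark the motifs TATAAA and TAATTA on either strand.
Olfr868: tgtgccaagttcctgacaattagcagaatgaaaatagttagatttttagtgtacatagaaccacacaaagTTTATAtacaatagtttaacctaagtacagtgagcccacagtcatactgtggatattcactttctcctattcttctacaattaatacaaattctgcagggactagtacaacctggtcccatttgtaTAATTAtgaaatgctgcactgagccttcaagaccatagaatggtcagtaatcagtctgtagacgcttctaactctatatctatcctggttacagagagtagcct
TAATTA is the core letters of homeodomain sites, such as those bound by Lhx2, a regulator of receptor genes, and 5.3% of all 32851 RefSeq windows held it on either strand, against 10 of the 24 members' windows. TATAAA was in 16 of the members' windows and in 13.6% of all windows. The Olf1/EBF consensus, held by 0.9% of all windows, was in none of the members' windows. The RefSeq start behind most of the members' windows lies at or near a coding start, so those windows may not cover the promoter. The shares over all windows may therefore concern unlike regions, and a match describes the letters only.

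The remaining 9 tested members had log2 fold changes of -1.05 to 0.04, none called. Olfr870 (-1.05, SE 0.34), Olfr869 (-0.998, SE 0.27) and Olfr855 (-0.87, SE 0.34) had the 3 lowest values and no overlap between genotypes, with edgeR adjusted p of 0.173, 0.117 and 0.250. Olfr836, Olfr860, Olfr845, Olfr857 and Olfr843 followed with -0.72, -0.66, -0.62, -0.56 and -0.25. Olfr828 had 0.60, 0.82 and 0.59 CPM in transgenic libraries, against 0.48, 0.71 and 0.76 CPM in wild-type libraries, a log2 fold change of 0.04 (SE 0.31) with overlapping groups.

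Over the 19 tested members the median log2 fold change was -0.62 and 16 values were below 0. The median was -0.64 over the 749 other class II receptors and 0.02 over all 19267 genes. The groups did not overlap for 8 tested members that were lower and 2 that were higher in transgenic tissue, against 12.5% and 11.4% of all genes tested. Before Zfp317, 12 genes were tested, with values of -2.36 to 2.51 and a median of -0.36. After it, 7 genes were tested, all below 0, with values of -1.83 to -0.26 and a median of -0.91. The untested genes of that stretch, Olfr862 and Olfr866, lay the other way at low counts. Without a filter their log2 fold changes were 1.83 (SE 0.79) and 1.27 (SE 0.74), neither called. The stretches were set apart after the values were seen. The log2 ratio of summed counts after Zfp317 to those before it was -0.42, -0.48 and -0.58 in transgenic libraries, against -0.27, -0.47 and 0.04 in wild-type libraries, a difference of -0.26 (SE 0.16; two-sided exact permutation test, p = 0.2).

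**Figure D4:**
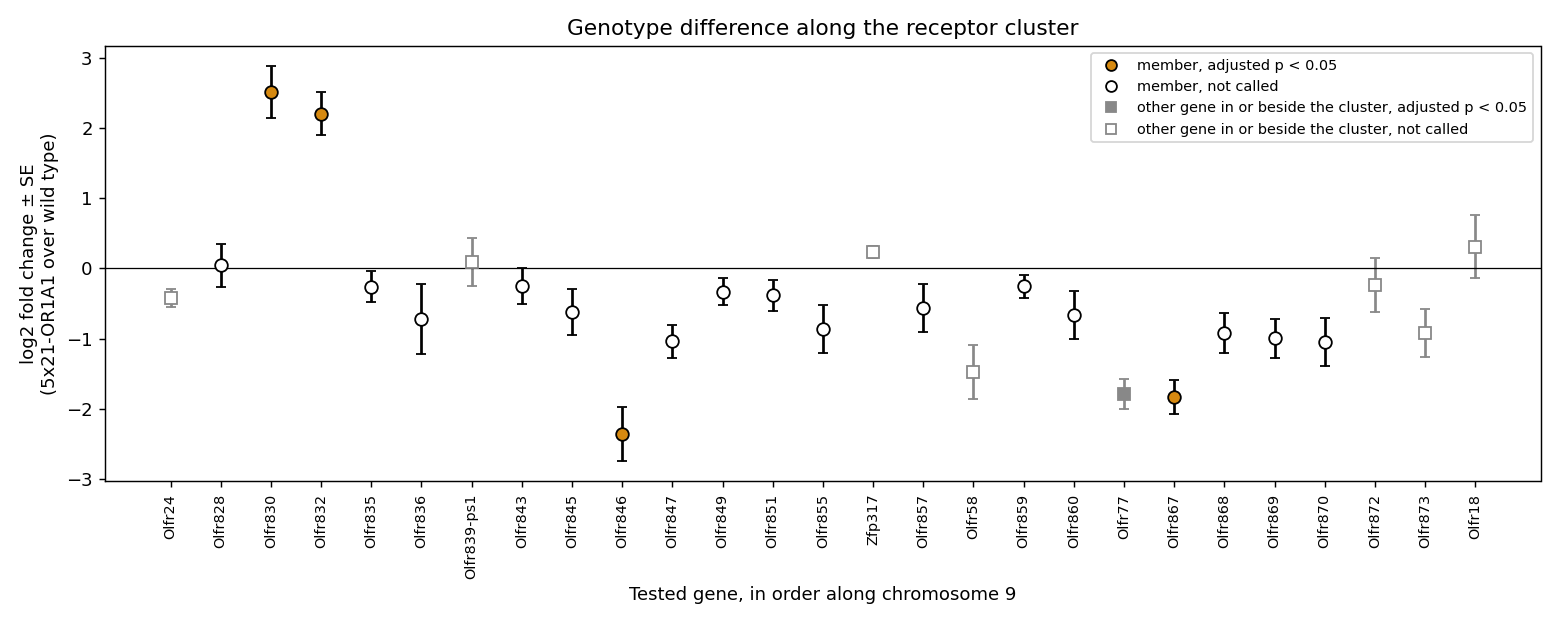
Log2 fold change of transgenic over wild-type tissue, with its SE, for every tested member (circles) and for other tested genes in or beside the cluster (squares), in order along chromosome 9; filled symbols passed an adjusted p of 0.05. Olfr830 and Olfr832 stand at 2.51 and 2.20, Olfr846 and Olfr867 at -2.36 and -1.83, and most others lie between -1.05 and 0.

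The other 9 members had too few counts for the test, so no count over tested members speaks for them. Olfr844 had 6, 2 and 2 counts in transgenic libraries, against 17, 11 and 21 in wild-type libraries, and Olfr853 had 10, 5 and 3, against 14, 15 and 8. Olfr862, of the Olfr857 group, had 8, 7 and 6 counts in transgenic libraries, against 1, 5 and 0 in wild-type libraries. These 3 of the 9 genes did not overlap between genotypes in CPM, against 23.8% of all genes tested, a set that leaves out such low counts. Olfr829, Olfr837 and Olfr866 overlapped, Olfr850 and Olfr854 had at most 5 counts in any library, and Olfr834 had none.

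Genes outside the number range lie among and beside the members. Olfr77, between Olfr862 and Olfr867, had 154, 147 and 113 counts in transgenic libraries, against 463, 737 and 333 in wild-type libraries. It fell by 1.79 on the log2 scale (SE 0.21, edgeR adjusted p = 0.00589), a value close to that of Olfr867. Olfr58, between Olfr857 and Olfr859, had 8, 6 and 10 counts in transgenic libraries, against 15, 30 and 26 in wild-type libraries (log2 fold change -1.48, edgeR adjusted p = 0.106). Just outside the range, Olfr24 before Olfr828 had a log2 fold change of -0.42 (edgeR adjusted p = 0.154). Beyond Olfr870 the values were -0.23 for Olfr872, -0.92 for Olfr873 and 0.31 for Olfr18, none of them called. Zfp317, the zinc finger gene inside the cluster, had 27.5 ± 2.01 CPM in transgenic and 23.5 ± 0.974 CPM in wild-type tissue (SD, n = 3 each; log2 fold change 0.23, edgeR adjusted p = 0.220).

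Summed over the 28 genes, the members took 0.00321%, 0.00357% and 0.00276% of all counts in transgenic libraries, against 0.00408%, 0.00521% and 0.00536% in wild-type libraries. Every transgenic library lay below every wild-type library. The log2 difference in share was -0.62 (SE 0.17; two-sided exact permutation test, p = 0.1, the smallest possible).

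Relative to other class II receptors the members' sum did not move beyond the spread between libraries. Of all class II counts, the members took 1.56% ± 0.155 in transgenic and 1.52% ± 0.135 in wild-type tissue (SD, n = 3 each). The log2 ratio to the other 951 class II genes differed by 0.04 (SE 0.11; two-sided exact permutation test, p = 0.7), with overlapping groups.

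The larger cluster on the same chromosome, taken as the 82 genes Olfr871 to Olfr985, had more of its tested genes called lower, 24 of 68, with a median of -1.03. The log2 ratio of the members to that cluster was -2.43, -2.31 and -2.70 in transgenic libraries, against -3.07, -3.29 and -2.44 in wild-type libraries. The difference was 0.45 (SE 0.28; two-sided exact permutation test, p = 0.2, with 0.1 the smallest possible). The third wild-type library lay among the transgenic ones.

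Per count of mature neuron markers, the members' sum differed by 0.08 on the log2 scale (SE 0.12; two-sided exact permutation test, p = 0.5). Transgenic libraries ranged from -8.92 to -8.67 and wild-type libraries from -8.98 to -8.68. The markers' part in the difference in share was not tested further.

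**Figure D5:**
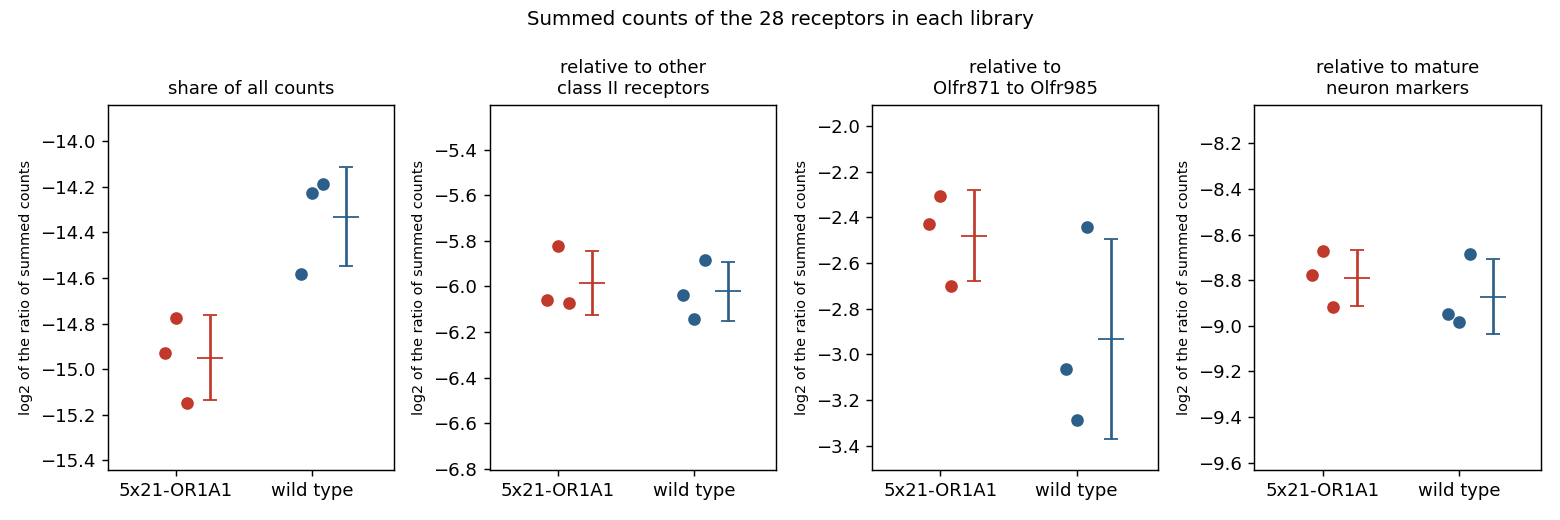
Log2 of the members' summed counts over all counts, over other class II receptors, over Olfr871 to Olfr985 and over mature neuron markers, with the 3 transgenic libraries left of the 3 wild-type libraries; bars are means ± SD and every panel spans the same log2 range. The groups stand apart in the first panel only, with a difference of -0.62.

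Genes that act with the receptors were also read from the same fit. Of 18 transduction genes tested, edgeR called 3 lower and 0 higher, with a median of -0.54. DESeq2 called 12 lower and 0 higher, against 902 lower and 310 higher of all 19267 genes tested. An unadjusted edgeR p under 0.05 was found for 13, and the share of all genes at that level is not given here. The 3 that fell by edgeR were Gng13 (-0.81), a G protein gamma subunit of olfactory neurons, Ric8b (-0.74), an exchange factor that promotes signalling through the olfactory G protein, and Cnga4 (-0.68), a subunit of the cyclic nucleotide-gated channel. Adcy3, the olfactory adenylyl cyclase, had a value of -0.60 (edgeR adjusted p = 0.123). Of 20 genes for receptor choice and trafficking, 1 fell, the transcription factor gene Ebf4 (-0.74, SE 0.11), with a list median of 0.02. DESeq2 called 3 of these genes lower and 1 higher, and 8 had an unadjusted edgeR p under 0.05. Lhx2 (-0.17) and its cofactor Ldb1 (0.03), which act at receptor enhancers, were not called (edgeR adjusted p = 0.536 and 0.879).

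Markers of cell types moved in the same libraries. Over all 19267 genes tested, edgeR called 2.20% lower and 0.519% higher, and DESeq2 called 902 lower and 310 higher. The share of all genes with an unadjusted p under 0.05 is again not given. Of 14 mature neuron markers 6 fell by edgeR (12 by DESeq2), among them Omp, the olfactory marker protein, at 6787 ± 190.5 CPM in transgenic and 11520 ± 1581 CPM in wild-type tissue (SD, n = 3 each). This list shares genes with the transduction list, so the calls of Gng13 and Cnga4 count in both. Of 8 immature neuron markers 4 rose by edgeR (5 by DESeq2) and of 8 progenitor markers 5 rose (8 by DESeq2), with summed levels of 1805 to 1992 and 245.9 to 287.9 CPM in transgenic libraries, against 1401 to 1663 and 140.5 to 167.3 CPM in wild-type libraries. No tested marker of horizontal basal (4), sustentacular (6), gland (6) or respiratory ciliated cells (4) was called by edgeR. In each of these lists 1 gene had an unadjusted p under 0.05, and DESeq2 called 1 sustentacular and 1 ciliated marker. Of 5 immune markers 1 rose, Jchain, of antibody-secreting cells (1.52), and of 5 olfactory bulb and brain markers 2 fell, Slc1a2 (-0.84) and Eomes (-0.90). The other 3 bulb and brain markers, Mbp (0.25), Gad1 (0.42) and Gad2 (0.49), were above 0 and not called, and the list median was 0.25. The dorsal zone enzyme gene Nqo1 fell (-1.18). Acsm4, the other dorsal zone marker, was lower without passing by edgeR (-0.45, edgeR adjusted p = 0.143), and DESeq2 called both dorsal markers lower. The 2 ventral zone markers were above 0 and were called by neither tool, and 1 had an unadjusted edgeR p under 0.05. The part of these cell types in the receptor values was not tested.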

How the data were processed

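Libraries were nonstranded and poly-A selected and were read as single-end reads of 100 bases, per the labels' protocols. The authors deposited raw counts per gene symbol, without normalization. Per the submitters' processing notes, TopHat2 2.1.1, HTSeq 0.9.1 and GRCm38.p5 were used. The annotation, the counting settings and what became of multi-mapped reads were not given in the sources used here. Because strand was not kept, overlapping genes such as Olfr860 and the antisense Gm45699 cannot be told apart.

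The main test was edgeR 4.0.16 under R 4.3.3 (TMM, the default filter by group with a minimum count of 10, quasi-likelihood test on genotype, Benjamini-Hochberg adjustment over 19267 genes). The SE of a log2 fold change is its size over the square root of F. CPM use TMM-scaled totals. Summed counts were compared over libraries with an exact permutation test, two-sided. Class I was taken as Olfr543 to Olfr693, Olfr64 to Olfr69, Olfr78 and Olfr33. Coordinates, exon lengths and coding sequences come from GENCODE M21 (GRCm38), and the promoter window from RefSeq (GRCm38.p6). Coding sequences were aligned with Biopython 1.88. Genes given in full are those called, the 6 most abundant and the 2 largest changes each way. The members and lists were chosen with earlier results of these data known. The tests were tested on simulated data. Alternatives covered scaling, filter, DESeq2 1.42.0, limma-voom 3.58.1, a replicate block, a Xist covariate and each library left out.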

Additional observations from a re-analysis of the deposited data

How the results depend on the processing

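Leaving out 1 library gave 0 to 5 members called, 0 to 3 lower and 0 to 2 higher, with 0 to 1 called without a transgenic library and 3 to 5 without a wild-type library. DESeq2 called 4 lower and 1 higher, adding Olfr847 and Olfr868 and giving no adjusted p for Olfr830. Without a filter 4 were lower, Olfr844 (-2.25, edgeR adjusted p = 0.0492) and Olfr847 among them. The stricter filter, which removes Olfr830, gave 1 higher. The Xist covariate, added after seeing the data, gave 1 lower, Olfr846 then having an adjusted p of 0.0702. At an adjusted p under 0.01 there was 1 call, 1 lower and 0 higher. Over all genes 523 were called, against 1212 by DESeq2, 14997 with scaling to mature neuron markers, 289 with the Xist covariate and 150 to 626 with 1 library left out. Why the tools and filters differ was not tested.

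Scaled to mature neuron markers, which moved the median of all genes by 0.71, the median of the members was 0.10 and the 4 calls kept their direction. Olfr835 became 0.44, Olfr843 0.45, Olfr845 0.10, Olfr849 0.39, Olfr851 0.34, Olfr857 0.15, Olfr859 0.44 and Olfr860 0.016. Olfr828 ran from -0.14 to 0.16 with 1 library left out, below 0 without transgenic library 2 (-0.13) or wild-type library 1 (-0.14). The ratio to other class II receptors was -0.041 with receptors taken by position (added after seeing the data), -0.025 without wild-type library 2, and -0.046 to 0.104 with 1 library left out. The same exclusions gave -0.74 to -0.52 for the share of all counts, 0.28 to 0.70 for the ratio to the larger cluster and 0.03 to 0.18 for that to neuron markers.

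Replicate numbers do not pair the libraries: deviations of same-numbered libraries correlated at -0.36, 0.11 and -0.11. With the replicate block 1 member was higher instead of 2, Olfr830 having an adjusted p of 0.0562. The 9 members below the count filter could not be tested, and why their counts were low was not tested.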

Other observations

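Receptor pseudogenes lie between the members. Olfr839-ps1, annotated as protein coding in GENCODE M21 despite its name, had 43, 34 and 27 counts in transgenic libraries, against 18, 50 and 34 in wild-type libraries (log2 fold change 0.09, SE 0.34). Olfr856-ps1, beside Zfp317, had 10, 9 and 5 counts in transgenic libraries, against 4, 2 and 2 in wild-type libraries, too few to test. Its direction was that of Olfr830, Olfr832 and the untested Olfr862, at counts of the same order as Olfr830 in wild-type tissue. Olfr831-ps1, Olfr833-ps1, Olfr838-ps1, Olfr840-ps1 and Olfr848-ps1 had 0 counts in every library.

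Without a filter on low counts, Olfr862 had a log2 fold change of 1.83 (SE 0.79, edgeR adjusted p = 0.355) and Olfr866 of 1.27 (SE 0.74, edgeR adjusted p = 0.571). Olfr853 then had -0.99 (SE 0.50, edgeR adjusted p = 0.471).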
